A study of Mus musculus with 6 samples.

Results

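Genes of the actomyosin cytoskeleton, the focal adhesion and the myofibroblast programme were followed in immortalized embryonic fibroblasts from mice without Kdm5a. The list named 36 genes by function, but it was drawn up with earlier results of these data known. Each gene was represented by its brightest single-gene probe set not ending in _x_at where another exists. That rule uses the level of a probe set and no difference between groups. The array annotation held 35 of the 36, out of 18194 genes in all, and Itga11 was not analysed here. The cells were KDM5A-/- fibroblasts of mixed background strain that carried an empty vector, reintroduced wild-type KDM5A, or reintroduced KDM5A-H483A, a form with alanine at a catalytic-domain histidine of this histone H3 lysine 4 demethylase. All 3 groups therefore lack the endogenous gene, and no group with an intact Kdm5a gene was part of the comparison. Each group has 2 arrays of the Affymetrix mouse type M430 2.0, 6 in all, with subconfluent cells released by trypsin before RNA extraction. Biological replication is all the labels state of these arrays, with no word on clones or on how cultures were kept apart, so p-values measure only the spread between these samples. Arrays of cells with reintroduced KDM5A are called wild-type and H483A arrays for short.

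Contractile force in fibroblasts comes from bundles of actin and non-muscle myosin II, the stress fibres. Tropomyosins, calponins, transgelins and caldesmon coat or regulate the actin filament, alpha-actinins and filamin crosslink it, and vinculin, talin, zyxin and paxillin couple it to integrins, the receptors for matrix proteins. A fibroblast that adds smooth muscle proteins such as alpha smooth muscle actin to these bundles is called a myofibroblast, and many of the genes involved are targets of serum response factor (SRF) and its actin-regulated coactivators, the MRTFs.

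SRF binds a sequence named the CArG box, which has CC and GG on either side of 6 bases that are A or T. RefSeq promoter windows (build GRCm38.p6), reaching from 250 bases before to 50 bases after a transcript start, were found for 31 of the 35 measured genes, and not for Actg2, Tagln, Myh11 and Pxn. A CArG box stood in a window of 5 of these 31 genes (16.1%), against 1.58% of 14453 genes with windows among all genes tested. The list was drawn up from known function, so this share describes the list and is not a result of the arrays. The 5 genes were Cnn2, Fhl1, Fhl2, Myl9 and Vcl. The windows of 4 of them are shown because they hold the boxes of genes described below, with the box in capitals.
Cnn2, chr10:79988350-79988649, plus strand: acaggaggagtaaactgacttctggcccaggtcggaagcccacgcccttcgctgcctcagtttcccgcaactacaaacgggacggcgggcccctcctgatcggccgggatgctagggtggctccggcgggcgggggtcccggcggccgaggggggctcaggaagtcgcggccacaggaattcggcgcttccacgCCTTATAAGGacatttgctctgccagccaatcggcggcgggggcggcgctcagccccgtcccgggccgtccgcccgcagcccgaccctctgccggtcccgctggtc
Fhl2, chr1:43163912-43164211, minus strand: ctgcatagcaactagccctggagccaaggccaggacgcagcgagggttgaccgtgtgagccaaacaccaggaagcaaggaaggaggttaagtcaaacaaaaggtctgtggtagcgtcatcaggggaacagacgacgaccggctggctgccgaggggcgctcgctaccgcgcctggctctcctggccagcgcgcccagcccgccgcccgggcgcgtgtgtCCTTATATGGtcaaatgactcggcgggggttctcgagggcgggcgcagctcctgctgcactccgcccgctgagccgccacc
Myl9, chr2:156775214-156775513, plus strand: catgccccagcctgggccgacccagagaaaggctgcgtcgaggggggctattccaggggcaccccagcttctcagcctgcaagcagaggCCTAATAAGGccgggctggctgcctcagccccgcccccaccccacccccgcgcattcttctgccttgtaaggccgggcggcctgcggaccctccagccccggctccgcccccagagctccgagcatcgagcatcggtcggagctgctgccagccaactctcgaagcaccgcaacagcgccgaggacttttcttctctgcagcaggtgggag
Vcl, chr14:20929148-20929447, plus strand: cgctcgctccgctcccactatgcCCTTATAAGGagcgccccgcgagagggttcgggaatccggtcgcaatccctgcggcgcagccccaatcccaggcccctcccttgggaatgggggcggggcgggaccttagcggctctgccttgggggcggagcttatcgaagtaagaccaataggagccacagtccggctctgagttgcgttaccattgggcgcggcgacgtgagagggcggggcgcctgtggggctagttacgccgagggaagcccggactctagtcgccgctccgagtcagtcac
The box began 56 bases before the start in Cnn2, 31 in Fhl2, 161 in Myl9 and 227 in Vcl. Cnn2 and Vcl held the same letters, CCTTATAAGG. A second Fhl2 window had CCAAAAAAGG, 96 bases before its start, and Fhl1 had CCTAAAATGG, 102 bases before. The MCAT box CATTCC, searched on both strands, stood in windows of 12 of the 31 genes (38.7%), against 15.3% of all genes, and none of its matches in the members overlapped a CArG box. These are matches of letters in a window, not binding sites.

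The 6 arrays had medians between 4.55 and 4.60 on the log2 scale, and no pair shared more than 36 identical gene values. Kdm5a itself lay between 5.83 and 6.11 in all 6 arrays, from a probe set that checks neither the deletion nor the vector, since no source used here gives its position. The fibroblast markers Col1a1, Col1a2, Col3a1, Pdgfra and S100a4 lay above the 90th percentile of all probe sets, and 1 of the 10 fibroblast markers, Fap, lay below the 50th. Below the 50th percentile were 9 of 13 skeletal and cardiac muscle markers, with Myod1, Myf5, Myh1 and Myh3 among them, 6 of 8 epithelial, 6 of 8 endothelial, 5 of 8 macrophage and leukocyte, 3 of 5 adipocyte and 3 of 8 other smooth muscle markers. The summed log2 value of the 10 fibroblast markers was 87.6 and 90.9 with empty vector, ran from 81.9 to 93.4 with wild-type KDM5A and from 81.9 to 91.5 with KDM5A-H483A. That of the 13 muscle markers ran from 53.7 to 55.0, 53.0 to 53.8 and 53.4 to 54.3 in the same order. In each group the lower fibroblast sum was that of the second array. The part of these marker differences in the values below was not tested, and in such bulk RNA fewer cells of a type and less RNA per cell cannot be told apart.

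RNA of alpha smooth muscle actin gave a high and nearly constant signal in its brightest probe set, whichever construct the cells carried. Its gene Acta2 stood at 13.02 and 13.12 in the empty vector arrays, 13.06 and 13.14 in the wild-type arrays, and 13.01 and 13.14 in the H483A arrays (log2 RMA values, arrays 1 and 2 of each group). The probe set lies at the 99.9th percentile of all probe sets, where RMA values can be compressed. Other Acta2 probe sets lay below the median signal, at means of 4.32 and 3.18. The 3 groups overlapped. Relative to empty vector, wild-type KDM5A gave a log2 fold change of 0.04 (95% CI -0.26 to 0.34) and KDM5A-H483A one of 0.01 (95% CI -0.29 to 0.30). Cnn1, the gene of the smooth muscle calponin, stood at 8.48 and 8.58 (empty vector), 8.51 and 8.54 (wild type), and 8.47 and 8.71 (H483A), again with overlapping groups. Of the 35 members, 25 had a probe set above the 95th percentile. Myh11, the smooth muscle myosin heavy chain, was the only member with no probe set above the median signal of all probe sets. Its brightest one stood at 3.83 and 3.60 (empty vector), 3.70 and 3.95 (wild type), and 3.44 and 3.61 (H483A), so its differences may not lie above background. Des, the gene of the muscle intermediate filament desmin, stood at 5.28 and 5.23 (empty vector), 5.46 and 5.27 (wild type), and 5.44 and 5.33 (H483A). Both H483A arrays lay above both empty vector arrays in this probe set. In a second Des probe set (1426732_at) these groups overlapped, at 4.90 and 4.96 (empty vector) and 4.91 and 5.03 (H483A). Its wild-type arrays, at 4.67 and 4.64, lay below both groups.

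**Figure D1:**
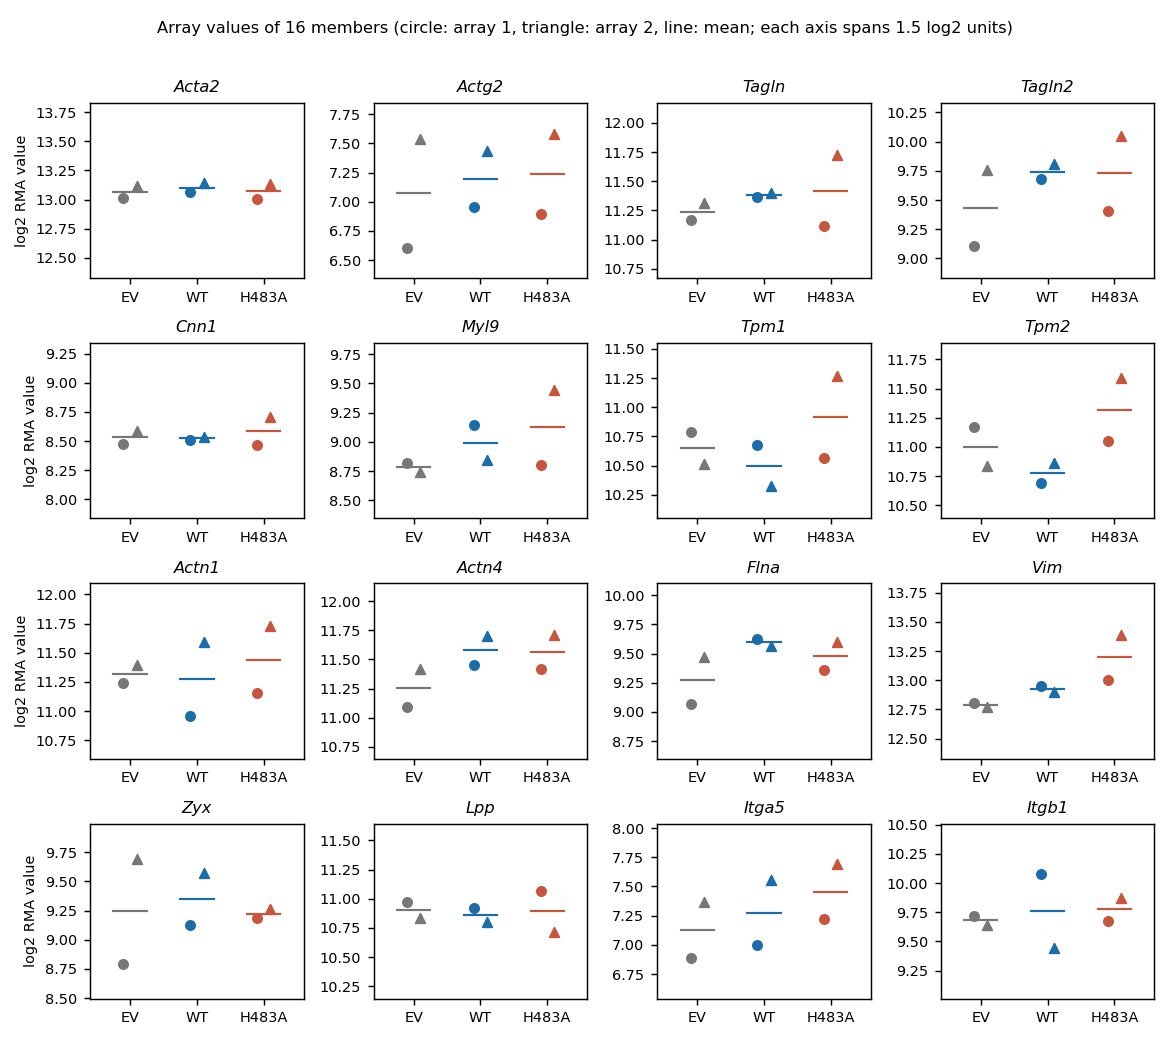
Log2 RMA values (vertical axes, each spanning 1.5 log2 units) of 16 members in the empty vector (EV), wild-type KDM5A (WT) and KDM5A-H483A (H483A) groups, with a circle for array 1, a triangle for array 2 and a line at the mean of the 2. Acta2 and Cnn1 are nearly flat, while the arrays of 1 group lie far apart for Actg2 and for Tpm1 and Tpm2 with KDM5A-H483A.

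Wild-type KDM5A was accompanied by small upward differences over most of these genes, and none passed the test. Limma called 0 of 35 members at an adjusted p under 0.05, as it called 0% of all 18194 genes, and at an unadjusted p under 0.05 there were 0 members against 459 genes, or 2.52%. Among the members 28 of 35 (80%) had a log2 fold change above 0 and 7 below, where 51.3% and 48.7% of all genes did, and the member median was 0.11 against 0.00 for all genes. Both wild-type arrays lay above both empty vector arrays in 7 members (20%), namely Tagln, Smtn, Myl9, Actn4, Flna, Palld and Vim, against 16.5% of all genes. Both lay below in 0 members against 15.4%. The median moved with single arrays, being 0.02 and 0.17 when the first or the second empty vector array was left out, and 0.14 and 0.03 when the first or the second wild-type array was. It was 0.05 with the median of each gene's probe sets and 0.06 with quantile normalization repeated.

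Cells with KDM5A-H483A showed a similar spread of small differences from the same empty vector arrays, which both comparisons share. Limma again called 0 of 35 members and 0% of all genes at an adjusted p under 0.05. At an unadjusted p under 0.05 there was 1 member, Vim, against 301 genes, or 1.65%. The log2 fold change was above 0 for 24 of 35 members (68.6%) and below for 11, against 50.2% and 49.7% of all genes, with a member median of 0.09 against 0.00. Arrays did not overlap for 5 members that were higher, Cnn2, Smtn, Des, Vim and Tln1, against 13.6% of genes, and for 1 that was lower, Itgav, against 14.6%. Leaving out the first or the second empty vector array gave a median of 0.01 or 0.15, and leaving out the first or the second H483A array gave 0.19 or 0.02.

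Between KDM5A-H483A and wild-type KDM5A the members had no common direction. Limma called 0 of 35 members and 0% of all genes, and at an unadjusted p under 0.05 there was 1 member, Tpm2, against 694 genes, or 3.81%. Log2 fold changes were above 0 for 17 members and below 0 for 18, against 48.4% and 51.6% of all genes, with a member median of -0.02 against -0.01. Arrays did not overlap for Tpm2, Vim and Tln1, which were higher with the mutant (14.9% of all genes), and for Myh11, Palld, Vcl and Itgav, which were lower (16.1% of all genes). The member median ran from -0.09, leaving out the second H483A array, to 0.03, leaving out the first, with -0.08 and 0.01 when the first or the second wild-type array was left out. In all 3 comparisons the 95% confidence interval of a member reached a median of 0.43 to either side, from 0.30 for Acta2 to 0.88 for Actg2. The intervals of all 35 members lay between -0.87 and 1.06.

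**Figure D2:**
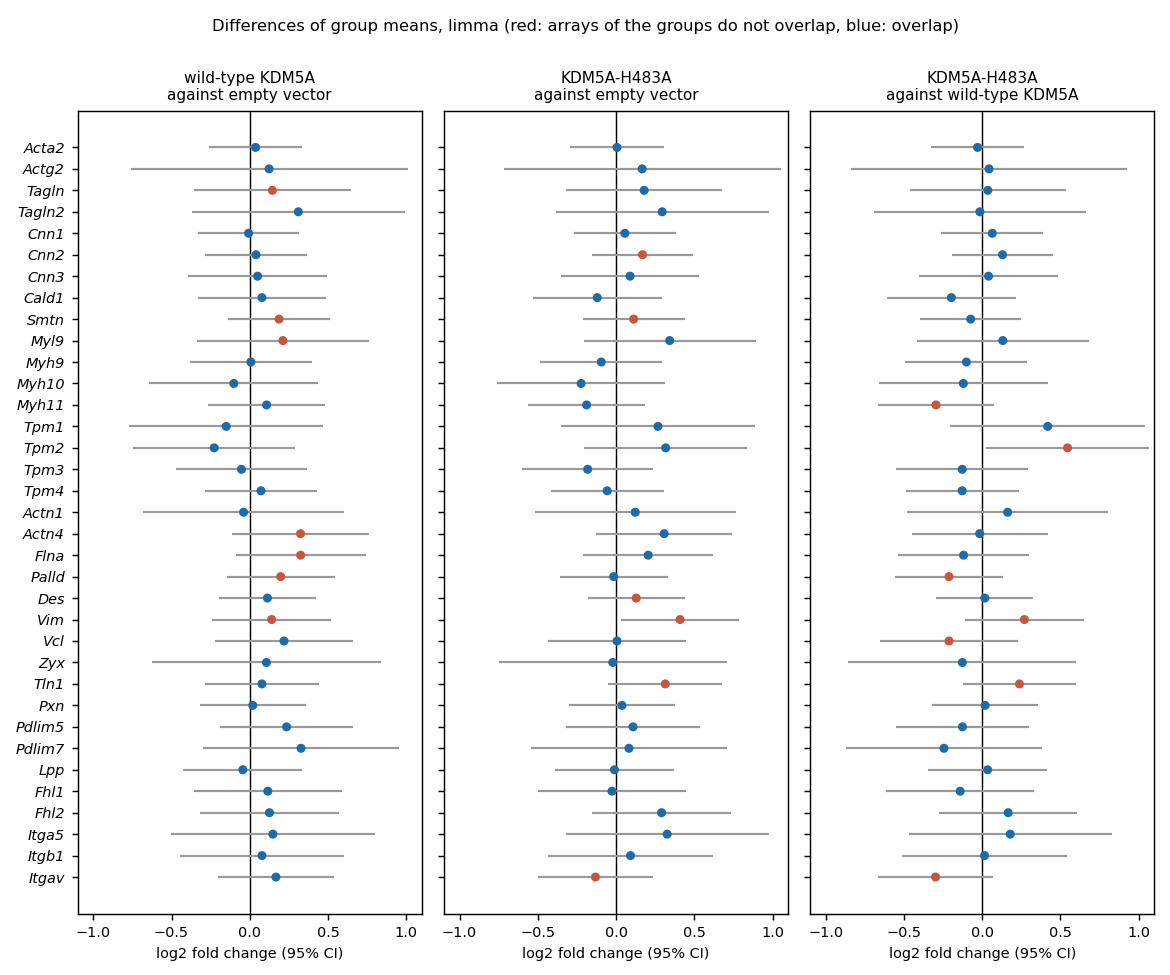
Log2 fold change (horizontal axes) of the 35 members in the 3 comparisons, as points with limma's 95% confidence interval, in red where the arrays of both groups did not overlap and in blue where they did. Nearly all intervals cross 0, the exceptions being Vim for KDM5A-H483A against empty vector and Tpm2 for KDM5A-H483A against wild-type KDM5A.

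Among the contractile actins and filament regulators, 8 of 9 members had a log2 fold change above 0 in each comparison with empty vector, with medians of 0.08 (wild type) and 0.11 (H483A). Tagln encodes transgelin, an actin-bundling protein of smooth muscle and stressed fibroblasts. It stood at 11.17 and 11.31 in the empty vector arrays, 11.37 and 11.40 in the wild-type arrays, and 11.12 and 11.72 in the H483A arrays. Its 2 KDM5A-H483A values were the lowest and the highest of the 6 arrays. The related Tagln2 stood at 9.11 and 9.76 (empty vector), 9.68 and 9.81 (wild type), and 9.41 and 10.05 (H483A). The wild-type group lay inside the range of the empty vector group at its lower end and just above it at its upper end. Tagln2 had a log2 fold change of 0.31 (95% CI -0.37 to 0.99, SE 0.28, limma adjusted p = 1) for wild-type KDM5A. Leaving out the first empty vector array gave -0.01. Actg2, the gene of enteric smooth muscle actin, had the widest gap of all members between empty vector arrays, at 6.61 and 7.53, while wild-type arrays were at 6.95 and 7.44 and H483A arrays at 6.89 and 7.58. In every group its second array was the higher one.

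Smtn encodes smoothelin, found with contractile smooth muscle filaments, and both KDM5A groups lay above empty vector. It stood at 6.71 and 6.76 in the empty vector arrays, 7.05 and 6.80 in the wild-type arrays, and 6.81 and 6.89 in the H483A arrays. The log2 fold change for wild-type KDM5A was 0.19 (SE 0.13, unadjusted p = 0.212, limma adjusted p = 1), and 0.06 without the first wild-type array. Cnn2, the calponin of non-muscle cells, was between 10.81 and 11.13, with both KDM5A-H483A arrays above both empty vector arrays. Cnn3 lay between 9.09 and 9.51 and Cald1, the gene of caldesmon, between 12.07 and 12.50, each with overlapping groups in all 3 comparisons.

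Myosin II consists of paired heavy chains with light chains, and its 4 members differed among themselves. Myl9, the gene of the regulatory light chain whose phosphorylation switches the motor on, stood at 8.82 and 8.74 in the empty vector arrays, 9.14 and 8.84 in the wild-type arrays, and 8.80 and 9.45 in the H483A arrays. The second KDM5A-H483A array was the highest, while the first lay within the empty vector range. Its log2 fold change against empty vector was 0.34 (95% CI -0.21 to 0.89, SE 0.23, limma adjusted p = 0.999) for KDM5A-H483A, and 0.02 without the second array. The heavy chain gene Myh10 showed the reverse within that group, at 11.17 and 10.65, after 11.09 and 11.17 with empty vector and 11.25 and 10.81 with wild-type KDM5A. Myh9, the main non-muscle heavy chain gene, stood at 13.67 and 13.83 (empty vector), 13.62 and 13.89 (wild type), and 13.79 and 13.51 (H483A). In the brightest probe set of each, both heavy chain genes were lowest in the second KDM5A-H483A array, the one in which Myl9 was highest. Other Myh9 probe sets are described below. Myh11 was 0.30 lower with KDM5A-H483A than with wild-type KDM5A (log2 fold change -0.30, 95% CI -0.67 to 0.08, limma adjusted p = 0.928, -0.17 without the second wild-type array and -0.14 with the median of its probe sets), at the dim levels given above.

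Tropomyosins, coiled coils that run along actin and select which motors bind it, held the largest single difference. Tpm2 stood at 11.17 and 10.83 in the empty vector arrays, 10.69 and 10.86 in the wild-type arrays, and 11.05 and 11.59 in the H483A arrays. Both mutant arrays lay above both wild-type arrays. The means were 11.32 ± 0.38 (SD, n = 2) for KDM5A-H483A and 10.77 ± 0.12 for wild-type KDM5A. That is a 1.46-fold difference (log2 fold change 0.55, 95% CI 0.03 to 1.06, SE 0.22, unadjusted p = 0.0422, limma adjusted p = 0.928), which did not pass the threshold. It was 0.28 when the second H483A array was left out and 0.81 when the first was. Against empty vector the Tpm2 difference was 0.32 (95% CI -0.20 to 0.84), and 0.05 without that second array. Tpm1 stood at 10.78 and 10.52 (empty vector), 10.68 and 10.32 (wild type), and 10.57 and 11.27 (H483A). The first KDM5A-H483A array lay between the wild-type values and the second above all others, for a log2 fold change of 0.42 against wild-type KDM5A (95% CI -0.20 to 1.04, SE 0.26, limma adjusted p = 0.928), and 0.07 without the second KDM5A-H483A array. With the median of its 4 probe sets it was 0.08. The probe sets used for Tpm3 and Tpm4 were lowest in the second KDM5A-H483A array, at 12.07 against 12.31 to 12.57 and at 12.22 against 12.23 to 12.50. Another Tpm3 probe set (1436958_x_at) was not, at 9.83 against 9.43 to 9.90.

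Crosslinkers of actin gave the highest role median for wild-type KDM5A, 0.26 over 4 genes. Flna, the gene of filamin A, which joins filaments into networks and binds integrin tails, stood at 9.07 and 9.47 in the empty vector arrays, 9.63 and 9.56 in the wild-type arrays, and 9.36 and 9.59 in the H483A arrays. Wild-type values lay above both controls, and mutant values overlapped them. The log2 fold change for wild-type KDM5A was 0.32 (95% CI -0.09 to 0.74, SE 0.17, unadjusted p = 0.106, limma adjusted p = 1), and 0.13 without the first empty vector array. Actn4, the gene of a non-muscle alpha-actinin, stood at 11.09 and 11.42 (empty vector), 11.45 and 11.70 (wild type), and 11.41 and 11.71 (H483A). The first empty vector array was the low one, and without it the difference for wild-type KDM5A was 0.16 in place of 0.32, with the mutant at 0.15 in place of 0.31. Palld encodes palladin, a scaffold of stress fibres, and stood at 10.00 and 10.11 (empty vector), 10.14 and 10.38 (wild type), and 9.96 and 10.13 (H483A). Its log2 fold change of 0.20 for wild-type KDM5A turned to -0.09 with the median of its probe sets, and was 0.08 without the second wild-type array. Actn1, the gene of the other alpha-actinin of fibroblasts, spanned 10.96 to 11.59 within the wild-type group, which enclosed both empty vector values of 11.24 and 11.39. Its H483A arrays were at 11.16 and 11.73.

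Intermediate filaments are represented by vimentin and desmin. Vim, the filament gene of mesenchymal cells, stood at 12.80 and 12.77 in the empty vector arrays, 12.95 and 12.90 in the wild-type arrays, and 13.00 and 13.39 in the H483A arrays. In this probe set the 3 groups did not overlap, in the order empty vector, wild type, mutant. The mutant was 1.33-fold above empty vector (log2 fold change 0.41, 95% CI 0.03 to 0.79, SE 0.16, unadjusted p = 0.038, limma adjusted p = 0.999), and 0.27 above wild-type KDM5A (95% CI -0.11 to 0.65). Both were smaller without the second H483A array, at 0.22 and 0.08. The other 2 Vim probe sets had log2 differences of 0.02 each between KDM5A-H483A and empty vector, so the difference rests on 1 probe set. Between wild-type KDM5A and empty vector they differed by -0.002 and -0.077, so the order of the 3 groups also rests on it. In 1438118_x_at both wild-type arrays, at 12.24 and 12.22, lay below both empty vector arrays, at 12.31 and 12.31.

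At the adhesion plaque, log2 fold changes were above 0 in 8 of 9 genes for wild-type KDM5A (median 0.12) and in 6 of 9 for KDM5A-H483A (median 0.04). Tln1, the gene of talin, which links integrin tails to actin and activates integrins, stood at 7.68 and 7.77 in the empty vector arrays, 7.87 and 7.73 in the wild-type arrays, and 7.88 and 8.20 in the H483A arrays. Both mutant arrays lay above all others, for a log2 fold change of 0.31 against empty vector (95% CI -0.05 to 0.68, SE 0.15, limma adjusted p = 0.999), and 0.16 without the second H483A array. With the median of its 3 probe sets, of which only 1 lay above the median signal, it was 0.19. Zyx, the gene of zyxin, a protein recruited to adhesions and stress fibres under tension, stood at 8.79 and 9.70 (empty vector), 9.13 and 9.57 (wild type), and 9.19 and 9.26 (H483A). Its empty vector arrays enclosed all 4 other values. Vcl, the gene of vinculin, stood at 12.12 and 12.57 (empty vector), 12.44 and 12.69 (wild type), and 12.40 and 12.31 (H483A), with both mutant arrays below both wild-type arrays. A dimmer Vcl probe set (1416157_at) stood at 5.70 and 6.52 (empty vector), 6.94 and 6.75 (wild type), and 6.51 and 6.60 (H483A). In it both wild-type arrays lay above all others, by a mean of 0.73 over empty vector.

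Pdlim7, whose product sits on stress fibres, stood at 8.02 and 8.64 in the empty vector arrays, 8.49 and 8.83 in the wild-type arrays, and 8.18 and 8.65 in the H483A arrays. Its log2 fold change for wild-type KDM5A, the largest of that comparison at 0.33 (95% CI -0.30 to 0.96, SE 0.26, limma adjusted p = 1), was 0.02 without the first empty vector array. With the median of its 3 probe sets it was also 0.02, the other 2 reading -0.09 and 0.09. Fhl2, a coactivator that shuttles between adhesions and nucleus and has CArG boxes in the windows described above, stood at 7.37 and 7.62 (empty vector), 7.47 and 7.78 (wild type), and 7.62 and 7.96 (H483A). It was 0.29 higher with KDM5A-H483A than with empty vector (95% CI -0.15 to 0.73, SE 0.18, limma adjusted p = 0.999), and 0.12 higher without the second H483A array. In the probe sets used, the second array of every group was higher for both genes, by 0.25 to 0.61. Fhl1 lay between 12.30 and 12.82, Pdlim5 between 9.32 and 9.82, Pxn, the gene of paxillin, between 10.00 and 10.26, and Lpp, a zyxin relative, between 10.72 and 11.07. In these probe sets the groups overlapped in each comparison. Other Lpp probe sets are described below.

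Of the integrin chains, Itga5 and Itgb1 encode the fibronectin receptor and Itgav the partner chain of several matrix receptors. Itga5 stood at 6.89 and 7.37 in the empty vector arrays, 6.99 and 7.55 in the wild-type arrays, and 7.22 and 7.69 in the H483A arrays. In the probe set used, the gap between the arrays of each group, 0.47 to 0.56, exceeded the largest difference between group means. That was 0.33 for KDM5A-H483A against empty vector (95% CI -0.32 to 0.98, SE 0.27, limma adjusted p = 0.999), and 0.09 without the first empty vector array. It was also 0.09 with the median of 4 Itga5 probe sets, of which only 2 lay above the median signal. The dimmer of these 2, 1423268_at, stood at 4.62 and 4.73 (empty vector), 5.26 and 5.11 (wild type), and 4.83 and 4.93 (H483A). There both KDM5A groups lay above empty vector, by 0.51 (wild type) and 0.20 (H483A). Itgav stood at 11.41 and 11.51 (empty vector), 11.45 and 11.81 (wild type), and 11.30 and 11.36 (H483A). Both mutant arrays were the lowest of the 6, and the difference from wild-type KDM5A was -0.30 (95% CI -0.67 to 0.07, SE 0.15, unadjusted p = 0.0972, limma adjusted p = 0.928), and -0.12 without the second wild-type array. A second Itgav probe set (1421198_at) stood at 5.96 and 6.72 (empty vector), 7.19 and 6.78 (wild type), and 6.37 and 6.36 (H483A), with both mutant arrays again below both wild-type arrays. The median of all 5 Itgav probe sets, 3 of which lay below the median signal, turned the difference to 0.08. Itgb1 stood at 9.72 and 9.64 (empty vector), 10.07 and 9.44 (wild type), and 9.67 and 9.88 (H483A), and the wild-type arrays enclosed all others.

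**Figure D3:**
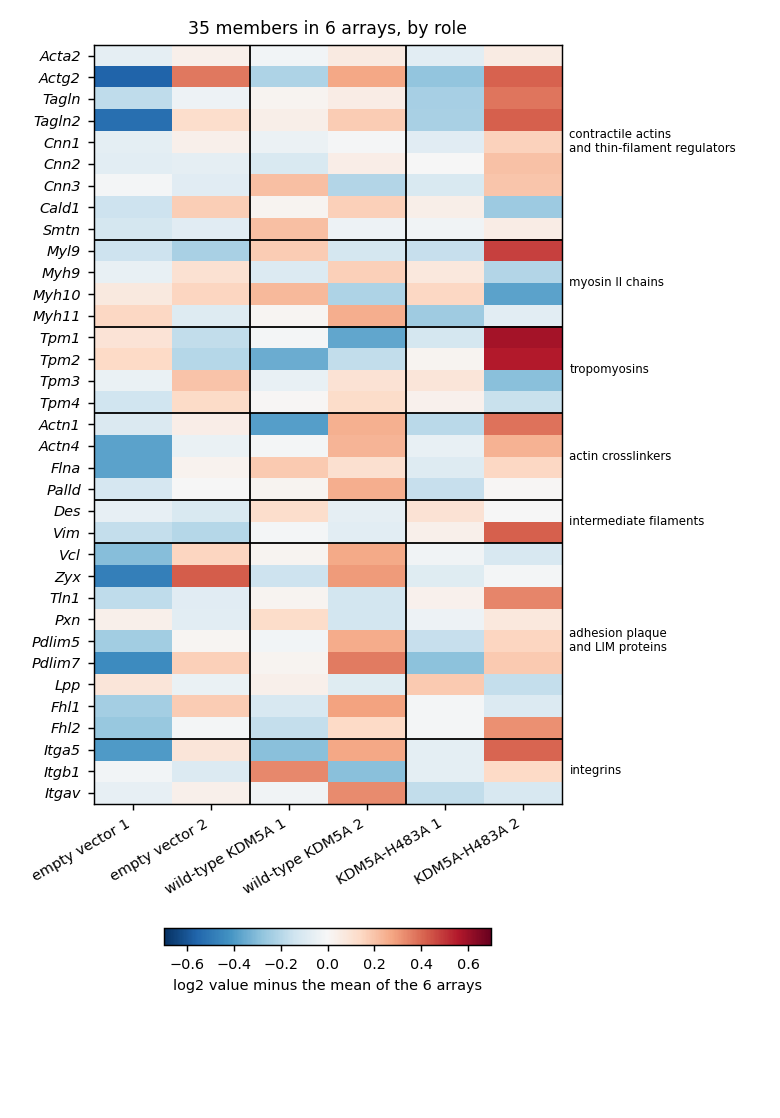
Colour gives each member's log2 value minus its mean over the 6 arrays (red higher, blue lower), with members as rows grouped by role and arrays as columns. The first empty vector array is the lowest of the 6 for 13 of 35 members, and the second KDM5A-H483A array is the highest for 14, where Tpm1 and Tpm2 are the darkest of that array.

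Replicate arrays also differed from each other over these genes. The first empty vector array was the lowest of the 6 for 13 of 35 members (37.1%), against 13.5% of all genes, and the highest for 0, against 12.9%. The second KDM5A-H483A array was the highest for 14 members (40%), against 23.1% of all genes, and the lowest for 6 (17.1%), also against 23.1%. The second array lay above the first for 25 of 35 members in the empty vector group, 23 in the wild-type group and 26 in the H483A group, against 49.6%, 47.3% and 49.6% of all genes. By the probe set used, it did so in all 3 groups for 15 members (42.9%), against 15.6% of all genes. These were Acta2, Actg2, Tagln, Tagln2, Cnn1, Cnn2, Actn1, Actn4, Palld, Zyx, Pdlim5, Pdlim7, Fhl2, Itga5 and Itgav. The second array lay below in all 3 groups for 2, Des and Lpp, against 17.3%. Both patterns depend in part on the probe set taken. Another above the median signal was lower in the second array for Palld with empty vector (-0.19) and Zyx with KDM5A-H483A (-0.12). The same held for Pdlim5 (-0.30), Pdlim7 (-0.08), Itga5 (-0.15) and Itgav (-0.41) with wild-type KDM5A. Another was higher for Des with KDM5A-H483A (0.12) and Lpp with wild-type KDM5A (0.23). For Tagln2 and Actn1 all such probe sets kept the pattern, and the other genes named had no further such probe set. Replicate numbers of different groups are not stated to mark a shared culture, day or batch.

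The median member was 0.11 higher in the second empty vector array, 0.15 higher in the second wild-type KDM5A array and 0.21 higher in the second KDM5A-H483A array, where the median of all genes was 0.00, -0.02 and 0.00. In absolute size the gap was 0.16, 0.25 and 0.29 for the median member, and 0.13, 0.18 and 0.19 for the median gene. Replicate arrays lay at least 0.5 apart for 4 members in the empty vector group, 3 in the wild-type group and 8 in the H483A group, against 3.79%, 11.2% and 14.9% of all genes. No member reached 1. The KDM5A-H483A gaps ran in opposite directions within a role, at 0.70 for Tpm1 and 0.54 for Tpm2 against -0.38 for Tpm3 and -0.18 for Tpm4, and at 0.64 for Myl9 against -0.52 for Myh10 and -0.28 for Myh9, each by its brightest probe set. For Tpm3 the other bright probe sets had H483A gaps of 0.00 and 0.30, and for Tpm1 1 had -0.81, so among the tropomyosins the opposition depends on the probe set taken. The 5 genes with a CArG box had median gaps of 0.25, 0.25 and 0.21 in the 3 groups, and the 26 without had 0.11, 0.13 and 0.22.

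**Figure D4:**
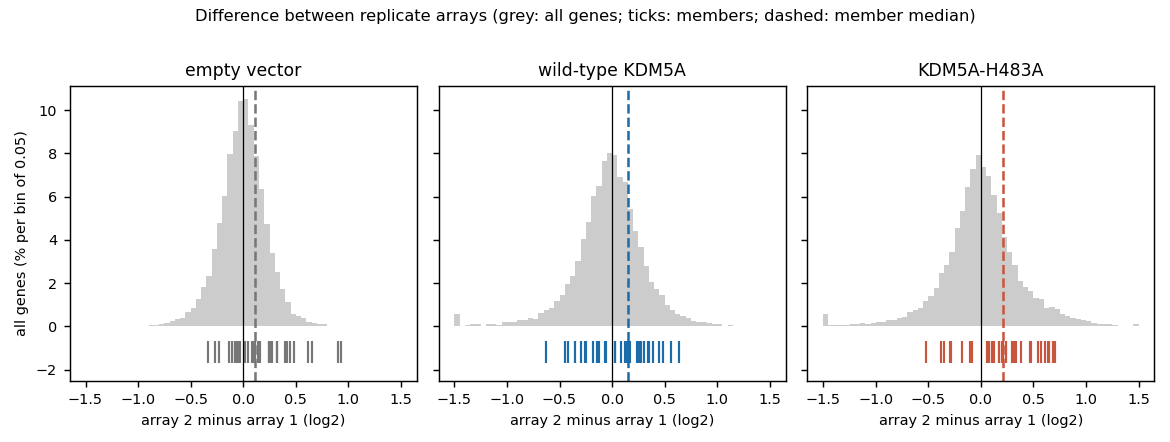
Array 2 minus array 1 on the log2 scale (horizontal axes) in each group, as the percentage of all 18194 genes per bin (grey; values beyond 1.5 are placed in the end bins) and as a tick for each of the 35 members under the histogram. The dashed lines at the member medians, 0.11, 0.15 and 0.21, lie to the right of 0 in all 3 groups.

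Several members are read by more than 1 probe set, and these did not always move together. Of 106 probe sets for the 35 members, 80 lay above the median signal, and 20 members had more than 1 such probe set. Within these 20, the log2 differences had mixed signs in 11 members for wild-type KDM5A against empty vector, in 11 for KDM5A-H483A against empty vector and in 10 for KDM5A-H483A against wild-type KDM5A. No source used here gives which exons or transcript ends a probe set reads. For Tpm1, 2 probe sets (1423721_at and 1423049_a_at) were 0.70 and 0.59 higher in the second KDM5A-H483A array than in the first, in contrast to 1456623_at, which was 0.81 lower, at 7.57 and 6.76. For Tpm2, 3 probe sets differed by 0.55, 0.69 and 0.73 between KDM5A-H483A and wild-type KDM5A, and the dimmer 1419739_at by -0.05. For Cald1, the log2 difference between KDM5A-H483A and wild-type KDM5A was -0.20 and -0.36 in the 2 brightest probe sets and 0.88 in 1424770_at. That probe set stood at 10.71 and 10.05 in the empty vector arrays, 9.76 and 9.76 in the wild-type arrays, and 10.36 and 10.92 in the H483A arrays.

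Between KDM5A-H483A and wild-type KDM5A, bright probe sets of Myh9 shared a direction, and those of Lpp did so except for the brightest. Those of Actn1 did so between replicate arrays, but had mixed signs for wild-type KDM5A against empty vector, from -0.04 to 0.23. For Myh9, all 4 bright probe sets were lower with KDM5A-H483A than with wild-type KDM5A, by -0.10 to -0.47. Between wild-type KDM5A and empty vector the brightest differed by 0.01 and the others by 0.29 to 0.34. For Actn1, all 3 bright probe sets were higher in the second array of each group, by 0.15 to 0.91. For Lpp, the brightest probe set showed a difference of 0.03 between KDM5A-H483A and wild-type KDM5A, while the other 6 bright ones differed by -0.23 to -0.67. The Lpp values of 1438271_at were 9.63 and 9.79 in the wild-type arrays against 9.68 and 8.48 in the H483A arrays. In this probe set the second mutant array held most of the difference. In the rest of those 6, both mutant arrays lay below both wild-type arrays. For 1436714_at the wild-type arrays were at 10.04 and 10.27 and the H483A arrays at 9.68 and 9.67. These probe sets were singled out after their values were seen.

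**Figure D5:**
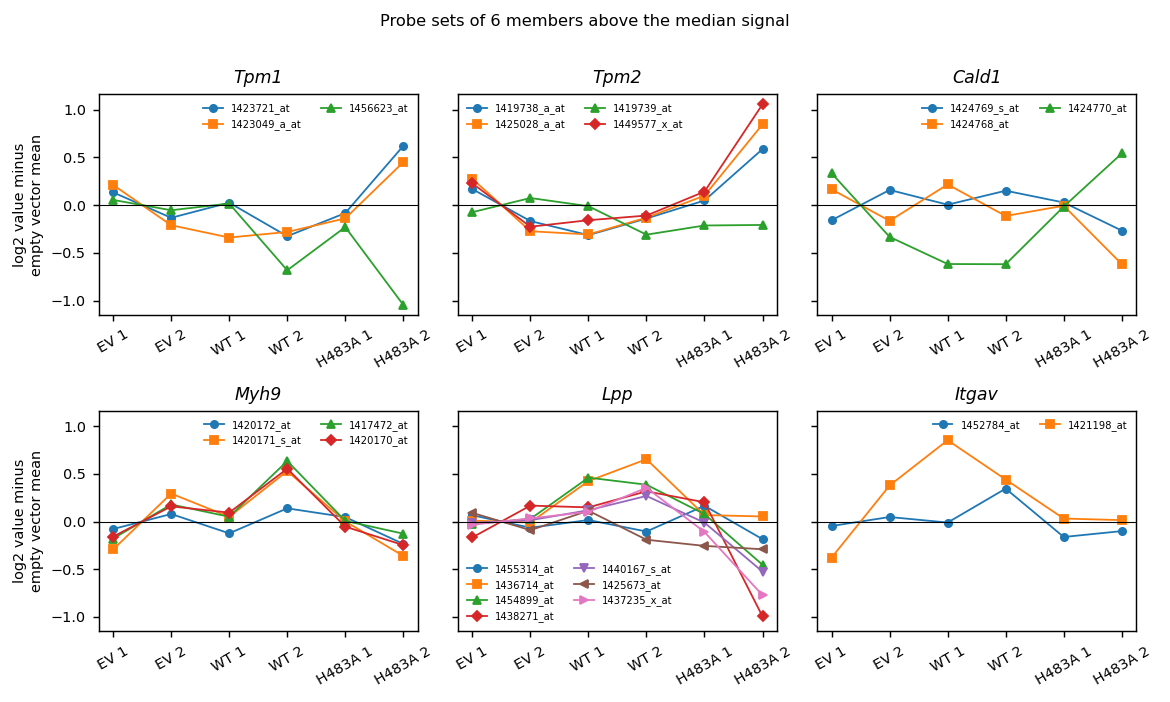
Log2 value minus the empty vector mean (vertical axes) for the probe sets of 6 members that lie above the median signal, in the 6 arrays, with lines that only join the points of 1 probe set. Tpm1 and Cald1 probe sets part in the second KDM5A-H483A array (Tpm1 1423721_at at 11.27 up, 1456623_at at 6.76 down). The 4 Myh9 probe sets are all lower with KDM5A-H483A than with wild-type KDM5A, and the brightest of them differs least.

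Wider parts of the same machinery gave 0 calls in either direction in each of the 3 comparisons by limma. Of the genes measured, 25 were of actin turnover, 26 other focal adhesion genes, 15 other integrin chains and 10 SRF regulators. At an unadjusted p under 0.05, wild-type KDM5A against empty vector held 3, 1, 0 and 1 of them in that order, against 2.52% of all genes. For KDM5A-H483A against empty vector there were 0, 1, 0 and 1, against 1.65% of all genes. Between both KDM5A groups there were 1, 0, 0 and 2, against 3.81%. Of 25 genes of actin turnover, 19 were above 0 for wild-type KDM5A (median 0.12) and 14 for KDM5A-H483A (median 0.07). Of all genes, 51.3% and 50.2% were above 0 in these comparisons. Pfn1, the gene of profilin, which feeds actin monomers to growing filaments, stood at 9.51 and 10.16 in the empty vector arrays, 10.43 and 10.51 in the wild-type arrays, and 9.75 and 9.80 in the H483A arrays. Both wild-type arrays were the highest, at 0.64 above empty vector (95% CI 0.12 to 1.16, unadjusted p = 0.0232, limma adjusted p = 1, and 0.31 without the first empty vector array), and the mutant was lower than wild type by -0.70 (95% CI -1.22 to -0.18, unadjusted p = 0.0162, limma adjusted p = 0.928). Gsn, the gene of the severing protein gelsolin, differed by 0.56 between KDM5A-H483A and empty vector and by 0.70 between both KDM5A groups, with 9.88 in the second H483A array against 8.55 to 9.38 in the others. Evl differed by 0.37 between KDM5A-H483A and empty vector, and Vil1, at 3.45 to 4.16, by -0.43 between wild-type KDM5A and empty vector.

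Among 26 other focal adhesion genes, 20 were above 0 for wild-type KDM5A (median 0.16) and 18 for KDM5A-H483A (median 0.12). The shares of all genes, here and for the lists below, were 51.3% and 50.2%. Ldb3, a Z-disc PDZ and LIM gene, stood at 4.86 and 5.03 in the empty vector arrays, 5.39 and 5.97 in the wild-type arrays, and 5.69 and 5.34 in the H483A arrays. All 4 KDM5A values exceeded both controls, with log2 fold changes of 0.73 (95% CI 0.19 to 1.27, limma adjusted p = 1) and 0.57 (95% CI 0.03 to 1.11, limma adjusted p = 0.999). The first was 0.45 without the second wild-type array, and with the median of its probe sets the values were 0.005 and 0.16. Csrp2, a LIM-only gene, differed by -0.49 between wild-type KDM5A and empty vector and by 0.61 between both KDM5A groups, Pdlim1 by 0.38 between KDM5A-H483A and empty vector, and Pdlim2 by 0.39 between both KDM5A groups. Of 15 other integrin chains, 8 were above 0 for wild-type KDM5A (median 0.02) and 7 for KDM5A-H483A (median -0.03), and Itgb8 stood at 5.77 and 6.14 in the empty vector arrays, 6.20 and 5.23 in the wild-type arrays, and 5.64 and 4.72 in the H483A arrays. Itga6 differed from empty vector by 0.63 (wild type) and 0.36 (H483A), Itga8 by -0.29 (wild type), and Itgb3 by 0.30 between both KDM5A groups. Of 10 regulators of SRF and its coactivators, 5 were above 0 in each comparison with empty vector (medians -0.05 and 0.04). Mrtfa, a coactivator that actin monomers hold in the cytoplasm, stood at 7.23 and 7.77 (empty vector), 7.74 and 8.14 (wild type), and 7.60 and 7.86 (H483A), and Srf at 7.67 and 7.62 (empty vector), 7.37 and 7.68 (wild type), and 7.49 and 8.29 (H483A). For both genes the groups overlapped. Fhod1, the gene of a formin that bundles actin, stood at 5.36 and 5.06 (empty vector), 5.36 and 5.10 (wild type), and 5.56 and 6.02 (H483A). Both H483A arrays lay above all 4 others, by 0.58 over empty vector (95% CI 0.08 to 1.07, unadjusted p = 0.0292, limma adjusted p = 0.999) and 0.56 over wild-type KDM5A (95% CI 0.06 to 1.06, unadjusted p = 0.0325, limma adjusted p = 0.928). Leaving out the second H483A array gave 0.34 and 0.33. Scai, a repressor of MRTF, had log2 fold changes of -0.33 (wild type) and -0.27 (H483A) against empty vector, with overlapping groups. For the difference between KDM5A-H483A and wild-type KDM5A, the list medians were -0.02 for actin turnover, -0.11 for focal adhesion, -0.08 for integrin chains and 0.06 for SRF regulators.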

How the data were processed

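The table that the authors deposited holds log2 values of 6 arrays, and the submitters' processing notes name RMA with no version. RMA corrects background, brings all arrays to a common distribution by quantile normalization and summarises the probes of a set in log2, so total RNA per cell is not seen and very dim or bright sets are compressed. No further scaling was applied. Of 45101 probe sets, 34958 had 1 gene symbol in the platform annotation, 932 several and 9211 none. Each of 18194 genes was represented by its brightest single-gene probe set not ending in _x_at where another exists. Arrays give no count of molecules, and their number limits the precision.

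Differences were tested with limma 3.58.1 in R 4.3.3 (1 mean per group, eBayes, 3 residual and 3.42 prior degrees of freedom, all 6 arrays), two-sided, with Benjamini-Hochberg adjustment over all 18194 genes and a threshold of 0.05. The procedure was tested on simulated data. The member genes and the pathway and marker lists were chosen with earlier results of these data known, so list counts and medians are descriptions. Values in every array are given for the 4 members with the largest change and the 4 with the smallest p per comparison, the 8 with the largest gap between arrays of a KDM5A group, and 6 markers. Further array values, and those of single probe sets, were chosen after values were seen. The pathway lists are named by up to 2 genes with the largest change per comparison, and 1 list is not reported here. Alternatives were the median of a gene's probe sets, arrays centred on their medians, repeated quantile normalization, dim genes left out, another variance model, 2 groups only, a replicate block, and each array left out in turn. Motifs were searched in RefSeq windows of GRCm38.p6.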

Additional observations from a re-analysis of the deposited data

How the results depend on the processing

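Limma called 0 genes and 0 members in each comparison under every alternative run. Over these counts, the member medians and the replicate gaps, all 129 alternative values of 12 results kept their side of the threshold or moved by less than the SD of the member median between replicate arrays, 0.11. That bar is as wide as the member medians against empty vector, 0.11 and 0.09, so a fall to 0 would also pass. Without the first empty vector array these medians were 0.02 and 0.01 and still counted as kept. For 48 single-gene differences, 13 of 622 alternative values changed sign, none of them past the threshold. Many of the 622 could not change, so 13 of 622 is not a rate of stability. The other variance model, 2 groups only, the replicate block and dim genes left out keep a gene's log2 fold change. So does leaving out an array of the group not compared. With the median of a gene's probe sets, Palld became -0.085 and Scai 0.12 for wild-type KDM5A against empty vector, and Itgav 0.083 for KDM5A-H483A against wild-type KDM5A. With 1 array left out in turn, the log2 fold change for wild-type KDM5A against empty vector ran from -0.015 to 0.64 for Tagln2 and -0.68 to 0.11 for Itga8. For KDM5A-H483A against empty vector it ran from -0.55 to 0.0065 for Scai, -0.80 to 0.048 for Ppp1cb, -0.15 to 0.88 for Evl, -0.13 to 0.88 for Pdlim1 and -0.037 to 0.76 for Itga6. For KDM5A-H483A against wild-type KDM5A it ran from -0.030 to 0.77 for Srf and -0.12 to 0.89 for Pdlim2. The cause of these sign changes was not tested. A group left with 1 array was assumed to vary like the others.

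The labels do not say that a replicate number marks a shared culture, day or batch. The differences between second and first arrays correlated across all genes with r = 0.31 between empty vector and wild-type KDM5A, 0.02 between empty vector and KDM5A-H483A and 0.53 between both KDM5A groups. Across the 35 members r was 0.58, 0.06 and 0.13 in the same order. Not every pair exceeded 0.1, the bar set for treating the numbers as pairs, and whether the arrays of a number share a factor was not tested. With the replicate number as a block, limma called 0 genes in each comparison, with 713, 502 and 922 genes at an unadjusted p under 0.05 in place of 459, 301 and 694, and 2, 3 and 1 members in place of 0, 1 and 1. The median member differences, 0.11, 0.09 and -0.02, cannot change under the block, since each group has 1 array of each number.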
